A study of Mus musculus with 8 samples.

Results

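Imprinted genes were examined in CD4-positive, Foxp3-positive regulatory T cells (Treg cells) of mice made by nuclear transfer. The members were 42 known mouse imprinted genes, found by gene symbol among the 24453 rows of the expression table. By textbook allele, 21 are paternally expressed, 11 are maternally expressed and 10 are imprinted only in certain tissues or isoforms. They lie in 20 loci. The list was fixed by symbol and used no expression value as a criterion, but it was chosen with earlier results of these data known.

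Genomic imprinting is the expression of a gene from the copy inherited from the mother or from the father only. The parental mark is DNA methylation laid down in the germ line at imprinting control regions, and it is kept through early embryonic reprogramming by the zinc finger protein ZFP57 with its partner TRIM28 and the methyltransferase DNMT1. In somatic cell nuclear transfer, an embryo is built from the nucleus of a differentiated cell, which carries the imprints of that cell and does not pass through the germ line. Many imprinted genes act in growth control and are high in embryo and placenta, and a separate group is used mainly in neurons. RNA totals do not separate the 2 parental copies, so nothing below says which copy was read.

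T138 and T143 are mouse lines whose derivation is given as nuclear transfer, and WT as wildtype. The series treats T138 as a natural Treg model and T143 as a Treg model whose development looked agonist-induced. All 8 libraries carry the strain label NOD-Foxp3GFP-Rag1-/-, received no treatment, and came from sorted Foxp3-positive, CD4-positive T cells: 2 from T138, 3 from T143 and 3 from WT. Each nuclear-transfer line goes back to a single nucleus, so a line is 1 founder genome and not a sample of many. Age and sex are not in the labels. Whether the Rag1-/- label also applies to the WT mice could not be checked here, and if it does not, Rag1 genotype and line cannot be told apart. The source names of 2 libraries point elsewhere: that of T143 replicate 1 names T138 and that of WT replicate 1 names T143, while their titles, descriptions and model labels name the groups used here. No label says that replicates came from separate animals, so the p-values below measure spread among libraries only, and that spread may be technical.

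Recovered depth ran from 7.83 to 22.64 M reads a library, and 3 reads, the most that a count of 0 allows, correspond to a value of 2.07 to 5.97. Foxp3 was read in every library, at 41161 and 41854 in T138, 29773 to 36362 in WT and 3920 to 8694 in T143. Cd4 was at 10922 to 17655 in the 8 libraries. Rag1 was at 107 and 108 in T138 libraries, 25.9 to 40.7 across T143 and 0 to 18.2 across WT. Xist was at 19143 to 24992 in the T143 libraries and at 129.9 or less in the others, while the Y-linked Ddx3y was at 1.27 or less in T143 and at 2094 or more elsewhere, so sex and line cannot be told apart in any comparison that includes T143. None of the members is X-linked. These genes also bear on the 2 libraries whose source names conflict. T143 replicate 1 had Xist at 19143, Ddx3y at 0 and Foxp3 at 3920, far from the T138 libraries that its source name gives. WT replicate 1 had Xist at 35.1, Ddx3y at 2923 and Foxp3 at 29773, far from the T143 libraries that its source name gives. A list of 10 neutrophil and myeloid markers summed to 94603 to 550115 in T143, 5856 and 25075 in T138 and 290.7 to 903.1 in WT. The 8 dendritic cell and MHC class II markers summed to 76687 and 101448 in T138 libraries, 6788 to 28003 across T143, and 1235 to 1696 across WT. These lists move with line and their part in the results on imprinted genes was not tested.

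Values are normalised read counts, listed in replicate order for each group. Changes are differences of log2(value + 1) with their SE, and a gene is said to have risen or fallen only where its adjusted p in limma was under 0.05. Of the 42 members, 35 reached a value of 1 in 2 or more libraries and were tested. The other 7 did not pass this filter: H19, Zim1, Kcnk9 and Rtl1 were at 0 in all 8 libraries, Usp29 was above 0 in 2 libraries, and Magel2 and Ndn in 1 each. In all, 19 members were above 0 in every library, and 18 had a mean of at least 100 over the 8 libraries. Single libraries held between 23 (WT replicate 2) and 35 (WT replicate 1) members above 0.

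Against WT, 3 of the 35 tested members rose in T138 (8.57%), where 5.74% of all 15547 tested genes rose, and 5 fell (14.3%), where 5.3% of all genes fell. In T143 against WT, 3 members rose (8.57%, all genes 11.7%) and 7 fell (20.0%, all genes 12.1%). With both lines averaged against WT, 2 rose (5.71%, all genes 7.34%) and 5 fell (14.3%, all genes 7.42%). Between the lines, 4 members were higher in T143 (11.4%, all genes 10.8%) and 4 were higher in T138 (11.4%, all genes 10.2%). The shares of members that rose, and both shares between the lines, were near the background of all genes. The shares that fell against WT were above it, by few genes, and were given no test of their own. The 3 comparisons against WT share the 3 WT libraries. Other scaling moved the split for T143: median centring and quantile normalization both gave 2 higher and 9 lower members against WT. All 15547 genes then held 1403 higher and 2157 lower with median centring, and 1758 and 2195 with quantile normalization. Against T138, median centring gave 2 higher and 4 lower members, beside 1272 higher and 1713 lower of all genes. In bulk RNA, fewer cells of a type and less RNA per cell cannot be told apart.

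Split by allele, the 17 tested paternally expressed genes held 2 that rose (11.8%) and 2 that fell (11.8%) in T138. In T143, 1 of them rose (5.88%) and 5 fell (29.4%). The 8 tested maternally expressed genes held Cdkn1c, which rose, and Igf2r, which fell, in T138 (12.5% each). In T143, Igf2r alone passed and fell (12.5%). Of the 10 genes with imprinting limited to a tissue or isoform, Inpp5f and Trappc9 fell in T138, while in T143 Ube3a and Commd1 rose and Inpp5f fell. Of all tested genes, 5.74% rose and 5.3% fell in T138, and 11.7% rose and 12.1% fell in T143. In T138 both parental classes held a gene that rose and a gene that fell. In T143 most paternally expressed genes that passed fell, and only 1 maternally expressed gene passed. The classes are small, and their shares were given no test of their own.

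**Figure D1:**
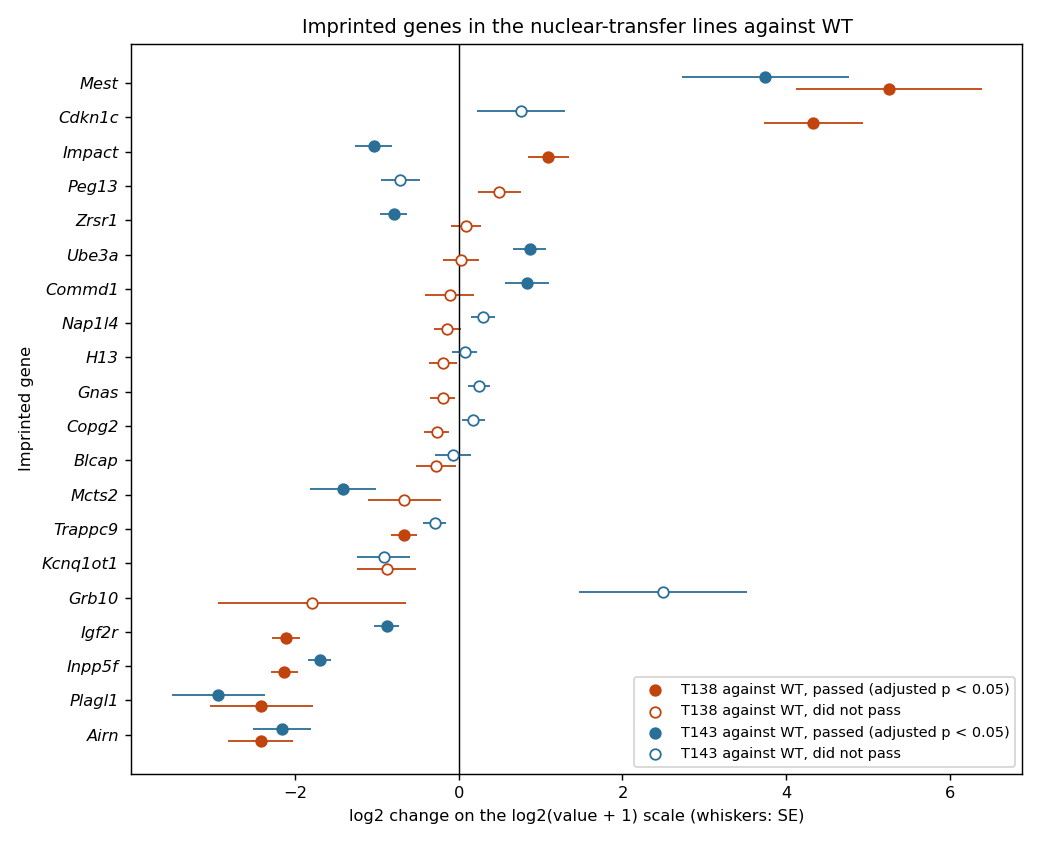
Change of the 20 imprinted genes given in full, T138 (orange) and T143 (blue) against WT, as log2 change on the log2(value + 1) scale with SE whiskers. Filled points passed the test. Mest stands at the top with both points filled, at 5.25 and 3.74, and Igf2r, Inpp5f, Plagl1 and Airn stand at the bottom with both points filled.

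Promoters of 4 members that moved in both lines are shown first, because their loci carry germline imprints and the windows differ in the sequence that ZFP57 reads. The windows run from 250 bases before to 50 bases after an annotated start and are from RefSeq (GRCm38.p6), given 5′ to 3′ on the gene's strand. Capitals mark TGCCGC, the hexamer that ZFP57 binds when its CpG is methylated, or its reverse complement GCGGCA. Mest is at chr6:30737800-30738099 (plus strand), Plagl1 at chr10:13090582-13090881 (plus strand), Igf2r at chr17:12769657-12769956 (minus strand) and Airn at chr17:12741061-12741360 (plus strand).
Mest: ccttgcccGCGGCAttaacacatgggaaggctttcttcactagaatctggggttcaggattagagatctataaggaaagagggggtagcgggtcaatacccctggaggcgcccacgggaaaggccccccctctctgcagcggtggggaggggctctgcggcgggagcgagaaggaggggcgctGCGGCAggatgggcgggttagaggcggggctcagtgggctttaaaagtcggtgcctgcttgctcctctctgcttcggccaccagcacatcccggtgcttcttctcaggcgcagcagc
Plagl1: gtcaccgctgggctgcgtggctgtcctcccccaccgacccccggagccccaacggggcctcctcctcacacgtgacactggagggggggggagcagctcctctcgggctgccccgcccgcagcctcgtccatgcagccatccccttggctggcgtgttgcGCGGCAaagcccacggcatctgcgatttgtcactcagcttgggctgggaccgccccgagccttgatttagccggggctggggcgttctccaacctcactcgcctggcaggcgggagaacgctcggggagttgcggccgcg
Igf2r: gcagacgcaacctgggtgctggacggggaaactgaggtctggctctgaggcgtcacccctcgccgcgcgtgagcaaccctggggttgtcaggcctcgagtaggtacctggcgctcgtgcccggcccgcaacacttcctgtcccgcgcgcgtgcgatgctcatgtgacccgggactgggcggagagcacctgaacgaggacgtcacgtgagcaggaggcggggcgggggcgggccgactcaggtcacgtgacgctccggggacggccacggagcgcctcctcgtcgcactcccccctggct
Airn: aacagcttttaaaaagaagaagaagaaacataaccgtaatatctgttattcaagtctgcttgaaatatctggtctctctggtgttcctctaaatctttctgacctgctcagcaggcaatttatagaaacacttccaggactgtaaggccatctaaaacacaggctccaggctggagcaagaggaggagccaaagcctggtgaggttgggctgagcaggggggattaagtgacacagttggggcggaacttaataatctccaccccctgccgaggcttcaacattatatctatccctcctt

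The table holds 3 windows for Mest. The downstream pair start 3 bases apart, and the first of them is shown; the upstream window held 8 CpG and no hexamer. The Mest window shown held 2 hexamers and 17 CpG, and the Plagl1 window held 1 hexamer and 26 CpG. Igf2r had 34 CpG and Airn 3, and neither window held the hexamer. Across the 32851 windows of the RefSeq table, 11.6% held the hexamer on either strand, and the median window had 7 CpG. Windows were found for 31 members, 45 windows in all, of which 13 (28.9%) in 12 genes held it, with a median of 16 CpG. Windows of 1 gene can overlap, windows with more CpG have more room for a motif that contains CpG, and a match is only a description of the letters. The sequence does not separate the genes by direction: Mest, which rose, and Plagl1, which fell, both have the hexamer.

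The receptor gene Igf2r was the member with the clearest gradation between groups. Igf2r encodes the receptor that carries mannose-6-phosphate-tagged enzymes to lysosomes and removes IGF2 from the cell surface, and it is expressed from the maternal copy in most mouse tissues. It spans 17:12682406-12769706 in GRCm38. Its values were 1521 and 1518 in T138 cells, 4253, 3693 and 2886 in T143 cells, and 7007, 6252 and 6476 in WT cells. The 3 groups did not overlap, with T138 lowest and WT highest. Igf2r fell in T138 (-2.11 ± 0.17, adjusted p = 8.93e-05) and in T143 (-0.88 ± 0.15, adjusted p = 0.00241), and it was higher in T143 than in T138 by 1.23 ± 0.17 (adjusted p = 0.00108). These calls held in every alternative run.

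Airn is the paternally expressed long noncoding RNA that starts inside Igf2r, runs antisense to it and silences Igf2r on the paternal chromosome. Its silencing of the neighbouring transporter genes Slc22a2 and Slc22a3 is limited to placental tissue. The Airn values were 83.7 and 55.9 for T138, 73.6, 111 and 68.1 for T143 and 309.9, 486 and 337 for WT. Every WT library was above every nuclear-transfer library, and the 2 lines overlapped. Airn fell in T138 (-2.42 ± 0.40, adjusted p = 0.0037) and in T143 (-2.16 ± 0.35, adjusted p = 0.00193). The 2 lines differed by 0.26 ± 0.40 (adjusted p = 0.67), which does not show that they are alike. The antisense RNA and its target were thus both lower in both lines. As a share of the Igf2r value, Airn was at 4.59% ± 1.29 in T138 (SD, n = 2), 2.36% ± 0.634 in T143 (SD, n = 3) and 5.80% ± 1.75 in WT (SD, n = 3). The annotated genes overlap on 28396 bases of the 118574 of Airn, and whether counting used strand is not given in the sources here, so reads in the overlap cannot be assigned. The transporter Slc22a2 in the same locus was at 0 in both T138 libraries, at 37.8, 31.8 and 21.0 in T143, and at 141, 91.6 and 128 in WT. It fell in T138 (adjusted p = 0.00041) and in T143 (adjusted p = 0.0489), with no overlap between groups, in the same order as Igf2r. Slc22a3 did not follow: it was at 0 and 11.9 for T138, 15.9, 14.0 and 39.6 for T143 and 0, 22.4 and 9.88 for WT, and did not pass in T138 (adjusted p = 0.791) or T143 (adjusted p = 0.367).

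Inpp5f, a phosphoinositide phosphatase of endosomes, had the smallest adjusted p of the members in T143 against WT. Only a short isoform of Inpp5f is paternally expressed, in brain; the row at 7:128611181-128696436 covers the whole gene and does not separate isoforms. Values were 828 and 764 in T138 libraries, 1152, 1106 and 964 across T143, and 3709, 3835 and 2976 across WT. All 5 nuclear-transfer libraries were below all 3 WT libraries. Inpp5f fell in T138 (-2.13 ± 0.16, adjusted p = 6.76e-05) and in T143 (-1.70 ± 0.15, adjusted p = 6.57e-05). The lines differed by 0.43 ± 0.16, which did not pass (adjusted p = 0.0857).

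Plagl1 encodes a zinc finger transcription factor that restrains the cell cycle and is expressed from the paternal copy. Its values were 95.5 and 43.2 in T138 cells, 23.9, 33.1 and 109 in T143 cells, and 421, 365 and 269.8 in WT cells. Again the WT libraries stood above all others and the lines overlapped. Plagl1 fell in T138 (-2.41 ± 0.63, adjusted p = 0.0347) and in T143 (-2.94 ± 0.57, adjusted p = 0.00449). The T138 call is weak: it was lost without either T138 library (adjusted p = 0.0571 and 0.219), without WT replicate 1, 2 or 3 (adjusted p = 0.0922, 0.0858 and 0.0762) and with edgeR (adjusted p = 0.0657). The T143 call was lost only without T143 replicate 1 and WT replicate 1 together (adjusted p = 0.0511).

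Trappc9, a subunit of the TRAPPII complex that tethers transport vesicles, is read more from the maternal copy in brain. It was at 692 and 632 for T138, 868, 868 and 838 for T143 and 964, 1026 and 1183 for WT, with no overlap between groups. It fell in T138 (-0.67 ± 0.16, adjusted p = 0.0245), while the difference in T143 did not pass (adjusted p = 0.171). Averaged over both lines the change was -0.48 ± 0.13 (adjusted p = 0.0325), a call lost in 8 of 17 alternatives, among them without T138 replicate 1 or 2, T143 replicate 2 or 3, or WT replicate 2 or 3 (adjusted p = 0.0502 to 0.128). Leaving out T138 replicate 2 or WT replicate 3 ended the T138 call (adjusted p = 0.137 and 0.0794), as did T138 replicate 1 (0.0719) and T143 replicate 2 (0.0501).

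**Figure D2:**
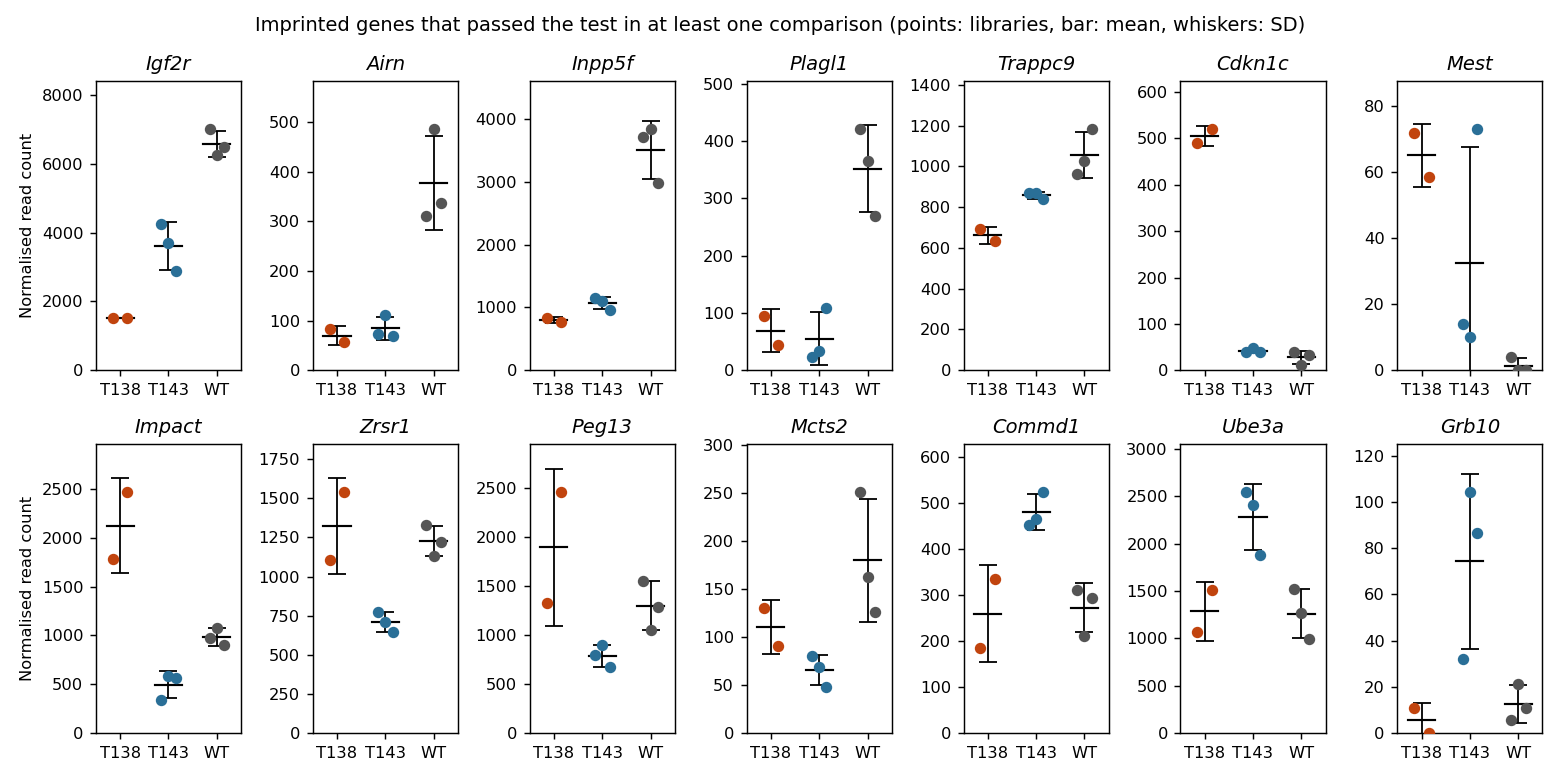
Normalised read count of the 14 imprinted genes that passed the test in at least 1 comparison, in each of the 8 libraries (points), with mean (bar) and SD (whiskers), each panel on its own linear axis. In the upper row WT is highest for Igf2r, Airn, Inpp5f, Plagl1 and Trappc9, and Cdkn1c is at 490.2 and 519.9 in T138 against 47.1 or less elsewhere.

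Among the genes that rose, Cdkn1c stood out in the T138 libraries. Cdkn1c encodes p57, an inhibitor of cyclin-dependent kinases that holds stem and progenitor cells out of the cycle, and it is expressed from the maternal copy in the cluster controlled by Kcnq1ot1. It spans 7:143458339-143461059. Its values were 490.2 and 519.9 in T138 libraries, 39.8, 47.1 and 38.4 across T143, and 39.3, 10.7 and 32.7 across WT. The T138 libraries lay above all others by a wide margin, and T143 overlapped WT. Cdkn1c rose in T138 by 4.33 ± 0.60 (adjusted p = 0.00162), was lower in T143 than in T138 (-3.57 ± 0.60, adjusted p = 0.00275), and did not pass in T143 against WT (0.76 ± 0.54, adjusted p = 0.34). These calls held in every alternative run. The 5 stem and progenitor markers (Kit, Cd34, Mecom, Gata2 and Procr) summed to 1337 and 718 in T138 cells, 167 to 1019 in T143 cells, and 30.3 to 164 in WT cells. Kit made up most of these sums. Procr of that list was at 59.1 and 72.0 in T138 and at 10.2 or less in the other libraries, while Cd34 and Gata2 were highest in T143 replicate 3, at 100.2 and 76.7. The sum of T143 replicate 3 (1019) was above that of T138 replicate 2 (718). The 8 dendritic cell and MHC class II markers summed to 101448 and 76687 in T138, 6788 to 28003 in T143 and 1235 to 1696 in WT. Xcr1 of these 8 was highest in T143 replicate 2, at 131. The part of either list in the Cdkn1c values was not tested.

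The other genes of that cluster did not all follow Cdkn1c. Kcnq1ot1, the paternally expressed antisense RNA that silences the cluster, was at 465 and 507 for T138, 390.1, 539.6 and 506 for T143 and 559, 1580.5 and 812 for WT. It did not pass in T138 (adjusted p = 0.157) or in T143 (adjusted p = 0.0624) against WT, and WT replicate 2 stood far above the other libraries. Without WT replicate 1 it passed as lower in both lines, and in T143 it also passed with median centring (adjusted p = 0.0326) and DESeq2 (adjusted p = 0.0199). Kcnq1, in which it lies, was at 2.13 in WT replicate 2 and 0 in the other libraries. Osbpl5, a lipid transfer protein gene of the same cluster from the list of other imprinted genes, was at 1713 and 1661 in T138 libraries, 635, 556 and 528 across T143, and 676, 807 and 739 across WT. It rose in T138 by 1.19 ± 0.17 (adjusted p = 0.00178) and was lower in T143 than in T138 (-1.56 ± 0.17, adjusted p = 0.000303). The maternally expressed Slc22a18 was at 18.7 and 19.5 in T138 cells, 0 to 9.90 in T143 cells, and 0 to 6.84 in WT cells, which did not pass in T138 (adjusted p = 0.131). Phlda2, which limits placental growth, was at 21.2 in T138 replicate 2, at 0 in T138 replicate 1, and at 9.90 or less elsewhere. Nap1l4, a histone chaperone gene at the edge of the cluster, was at 3252 and 2958 for T138, 4800.1, 4170.4 and 3692 for T143 and 3873, 2998 and 3441 for WT, and passed in no comparison.

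Mest was nearly silent in WT and was read in all 5 nuclear-transfer libraries. Mest encodes an enzyme of the alpha/beta hydrolase fold, is expressed from the paternal copy in mesoderm and the embryo, and has a methylated maternal promoter. Its values were 71.9 and 58.4 in T138 libraries, 13.9, 10.2 and 73.0 across T143, and 4.13, 0 and 0 across WT. Every nuclear-transfer library was above every WT library, and T143 replicate 3 stood apart from the other T143 libraries. T143 replicate 3 also had the highest sum of myeloid markers (550115). The order differed elsewhere: the sums were 94603 and 166930 in T143 replicates 1 and 2, and 25075 and 5856 in T138. The part of these markers in the Mest values was not tested. Mest rose by 5.25 ± 1.14 in T138 (adjusted p = 0.015) and by 3.74 ± 1.02 in T143 (adjusted p = 0.0226), sizes that depend on the pseudocount because WT is near 0: with a pseudocount of 10 they were 2.74 and 1.61. The T143 call was lost with a pseudocount of 10 (adjusted p = 0.0571), without T143 replicate 3 (2.90, adjusted p = 0.0891) and without WT replicate 2 or 3 (adjusted p = 0.0657 and 0.0753). The T138 call was lost without T138 replicate 1 or 2 (adjusted p = 0.0767 and 0.0735), without WT replicate 3 (adjusted p = 0.0519) and with edgeR (adjusted p = 0.054). Averaged over both lines, Mest rose by 4.50 ± 0.92 (adjusted p = 0.00918) and passed in every alternative. Copg2, a coatomer subunit gene whose 3′ end overlaps that of Mest on 913 bases, was at 896 and 905 in T138 cells, 1108, 1219 and 1376 in T143 cells, and 1052, 1087 and 1121 in WT cells, and passed in no comparison.

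Impact moved in opposite directions in the 2 lines. The Impact protein, from a paternally expressed gene, binds GCN1 and restrains the GCN2 kinase that slows translation when amino acids are short. Its values were 1778 and 2469.8 for T138, 332, 582 and 562 for T143 and 972, 1079.9 and 898 for WT, with no overlap between any 2 groups. It rose in T138 by 1.09 ± 0.26 (adjusted p = 0.0211) and fell in T143 (-1.04 ± 0.23, adjusted p = 0.00882), and the lines differed by -2.13 ± 0.26 (adjusted p = 0.000512). The rise in T138 was lost without T138 replicate 2 (0.86, adjusted p = 0.177), WT replicate 1 (adjusted p = 0.0516) or WT replicate 3 (adjusted p = 0.0747). The fall in T143 and the difference between the lines passed in every alternative.

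Pairs of a paternally expressed gene inside another gene form 3 further loci. Zrsr1, an intronless copy of an X-linked splicing factor gene, lies in an intron of Commd1, which encodes a regulator of copper transport and NF-kB. Zrsr1 was at 1106 and 1541 in T138 libraries, 772, 711 and 642 across T143, and 1327, 1134 and 1218 across WT. T143 was below all other libraries, and T138 overlapped WT. Zrsr1 fell in T143 (-0.79 ± 0.16, adjusted p = 0.00657), did not pass in T138 (0.09 on the log2 scale, adjusted p = 0.813), and was lower in T143 than in T138 (-0.88 ± 0.18, adjusted p = 0.00812), a call lost without T138 replicate 2 (adjusted p = 0.0886). Commd1 was at 184 and 334 in T138 cells, 452, 465 and 524 in T143 cells, and 311, 211 and 293 in WT cells, so T143 was the highest group here. Commd1 rose in T143 by 0.84 ± 0.27 (adjusted p = 0.0461) and was higher than in T138 by 0.95 ± 0.30 (adjusted p = 0.0479). Both Commd1 calls are marginal: the rise against WT was lost without any single T143 or WT library (adjusted p = 0.0539 to 0.131), and the difference from T138 was lost without T138 replicate 1 (0.52, adjusted p = 0.29), any T143 library or WT replicate 1 or 3 (adjusted p = 0.0527 to 0.109). The Zrsr1 value was 531.5% ± 98.4 of that of Commd1 in T138 (SD, n = 2), 148.9% ± 24.4 in T143 (SD, n = 3) and 460.2% ± 67.5 in WT (SD, n = 3). The T143 shares, 122.7 to 170.9%, were below every other library.

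Peg13, a paternally expressed noncoding RNA of neurons that lies in an intron of Trappc9, was at 1325 and 2458 for T138, 790.1, 897 and 673 for T143 and 1555, 1052 and 1284 for WT. T143 lay below the other groups, and the T138 libraries were far apart. Peg13 was lower in T143 than in T138 (-1.21 ± 0.26, adjusted p = 0.0101), which was lost without T138 replicate 2 (-0.76, adjusted p = 0.108), and narrowly did not pass against WT in T143 (-0.71 ± 0.24, adjusted p = 0.0509), where it passed in other settings, such as without either T138 library (adjusted p = 0.0248 and 0.0258). Its share of the Trappc9 value was 290.3% ± 139.7 in T138, 91.6% ± 11.5 in T143 and 124.1% ± 32.3 in WT (SD, n = 2, 3 and 3).

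Mcts2, an intronless copy of an X-linked gene that acts in translation restart, lies in an intron of H13, which encodes signal peptide peptidase. Mcts2 was at 129.9 and 90.6 in T138 libraries, 79.6, 68.7 and 48.3 across T143, and 251, 162 and 126 across WT. T143 lay below all other libraries, and T138 overlapped WT. It fell in T143 (-1.41 ± 0.40, adjusted p = 0.028), which was lost without T143 replicate 2 or 3 (adjusted p = 0.0695 and 0.0801) or WT replicate 1 or 2 (adjusted p = 0.0948 and 0.0614). H13 was at 3082 and 2373 in T138 cells, 3417, 3207 and 3145 in T143 cells, and 3253, 2628 and 3460.3 in WT cells, and passed in no comparison. The Mcts2 share of the H13 value was 4.02% ± 0.281 in T138, 2.00% ± 0.416 in T143 and 5.84% ± 2.05 in WT (SD, n = 2, 3 and 3). By value, the inner, paternally expressed gene of each of these 3 loci was lowest in T143, and of the hosts Trappc9 in T143 was also below every WT library. By the test against WT, Zrsr1 and Mcts2 fell in T143 and Peg13 did not pass, while Commd1 rose and Trappc9 and H13 did not pass. Other overlapping pairs had another order. The Mest share of the Copg2 value was 7.24% ± 1.11 in T138 (SD, n = 2), 2.47% ± 2.47 in T143 (SD, n = 3) and 0.131% ± 0.227 in WT (SD, n = 3). Nap1l5 was at 0% of Herc3 in T138, 0.0842% in T143 and 0.725% in WT by mean, and Nnat at 1.07%, 0% and 6.94% of Blcap, with WT replicate 1 giving the WT value of both. The counts of Zrsr1 and Mcts2 are uncertain because each has a near copy, of which Zrsr2 also fell in T143 against WT (-0.86 ± 0.18, adjusted p = 0.0062), and no source used here says how reads that fit several places were counted. Reads in the exons of an inner gene cannot be told from unspliced host RNA if strand was not used.

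**Figure D3:**
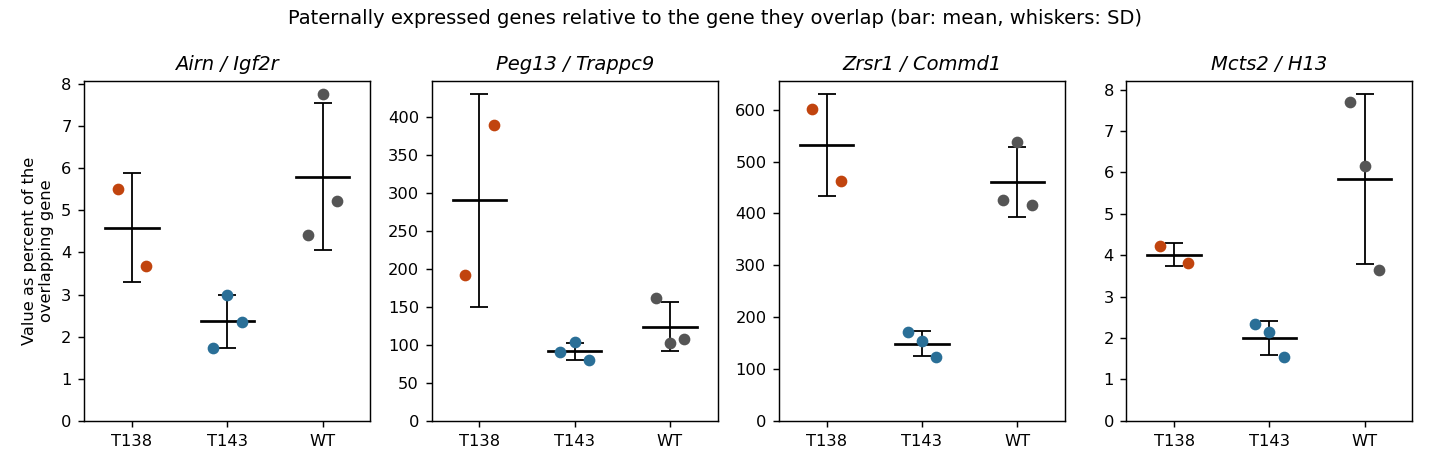
Value of a paternally expressed gene as a percent of the gene it overlaps, in each library (points), with mean (bar) and SD (whiskers), on linear axes that start at 0, for the 4 pairs in which both genes were above 0 in every library. In these pairs T143 has the lowest mean, at 2.36% for Airn, 91.6% for Peg13, 148.9% for Zrsr1 and 2.00% for Mcts2.

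Ube3a and Grb10 were higher in T143. Ube3a encodes a ubiquitin ligase that is imprinted in neurons and read from both copies in most other cells. It was at 1064 and 1507 for T138, 2547, 2414 and 1885 for T143 and 1518, 1268 and 994 for WT, so every T143 library was above all others. Ube3a rose in T143 against WT by 0.87 ± 0.20 (adjusted p = 0.011), which held in every alternative, and was higher than in T138 by 0.84 ± 0.22 (adjusted p = 0.0239). The difference from T138 was lost without T138 replicate 1 (0.59, adjusted p = 0.179), without T143 replicate 1 or 2 (adjusted p = 0.0667 and 0.0718) and with median centring (adjusted p = 0.0621). Grb10 encodes an adaptor that restrains insulin and IGF1 receptor signalling and is maternally expressed outside neurons. Grb10 was at 10.8 and 0 in T138 libraries, 31.8, 104 and 86.6 across T143, and 5.51, 21.3 and 10.6 across WT, with T143 above all other libraries. It was higher in T143 than in T138 by 4.29 ± 1.14 (adjusted p = 0.0238) and did not pass against WT (adjusted p = 0.105). The Grb10 difference was 2.51 and no longer passed without T138 replicate 2 (adjusted p = 0.163), and the call was also lost with edgeR (adjusted p = 0.0907) and without T143 replicate 2 or 3 (adjusted p = 0.0867 and 0.0616). The 6 erythroid markers summed to 1996 to 11469 in T143, 799 and 1682 in T138, and 173 to 406 in WT, with the highest sum in the library with the highest Grb10, T143 replicate 2; their part in the Grb10 values was not tested. Ddc, a decarboxylase gene next to Grb10 that shares its imprinted domain, was at 0 in both T138 libraries, 0, 3.82 and 2.48 in T143, and 40.6, 51.1 and 28.9 in WT, and fell in both lines (adjusted p = 0.0062 and 0.00823).

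The remaining members with a mean of at least 100 passed in no comparison. Gnas, which encodes the stimulatory G protein alpha subunit, was at 7364 and 6629.6 in T138 cells, 10335, 9363 and 8870.2 in T143 cells, and 7381 to 9458 in WT cells. Blcap, a growth-related gene whose intron holds Nnat, was at 321 and 408 for T138, 499.5, 377 and 387 for T143 and 374 to 532.5 for WT. Per kb of transcript, Gnas had the highest WT mean of the members (2068 per kb), followed by H13 (1787) and Nap1l4 (1507), and Inpp5f and Igf2r were close together (741 and 740.2). Cdkn1c was at 14.6 per kb in WT and 267.5 in T138. The genes at the top of this order are used in most cell types.

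The low members showed a different pattern. The 20 members with a mean under 100 that were above 0 somewhere include Grb10 and Mest, and 12 of the 20 had their highest value in WT replicate 1. Meg3, the maternally expressed noncoding RNA of the Dlk1-Meg3 locus, was at 303.7 in WT replicate 1, 0 and 17.5 in the other WT libraries, and 25.99 or less in the lines. Snrpn, a splicing protein gene of neurons, was at 159.8 in WT replicate 1 and 2.95 to 27.4 elsewhere. Nnat, a small membrane protein gene of neurons, was at 77.8 in WT replicate 1, 6.89 in T138 replicate 1 and 0 in the other 6 libraries. A single WT library thus carried most of the signal of these genes. Ndn was at 57.9 in WT replicate 1 only. Rasgrf1, a Ras exchange factor gene of neurons, was at 58.5 there, 4.95 in T143 replicate 3 and 0 elsewhere, and Nap1l5 was at 39.3 there and 2.55 or less elsewhere. Peg3 was at 17.2 in WT replicate 1 and 4.56 or less elsewhere.

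A list of 10 neuron markers, added after these values were seen, summed to 1717 in WT replicate 1, 136.3 and 44.8 in the other WT libraries, 35.4 and 51.6 in T138, and 45.8 to 80.4 in T143. All 10 were above 0 in WT replicate 1, with Snap25 at 224.5 and Syt1 at 161.9. The part of neuronal RNA in the WT values of the low members was not tested. WT replicate 1 also had the most 45S ribosomal precursor (Rn45s at 190926, against 35945 to 93391). It is 1 of the 2 libraries whose source name points to another group, though its Xist, Ddx3y and Foxp3 values were far from those of T143. The 8 fibroblast and stromal markers summed to 74.5 to 198.8, with Lum and Dpt at 0 in all 8 libraries.

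**Figure D4:**
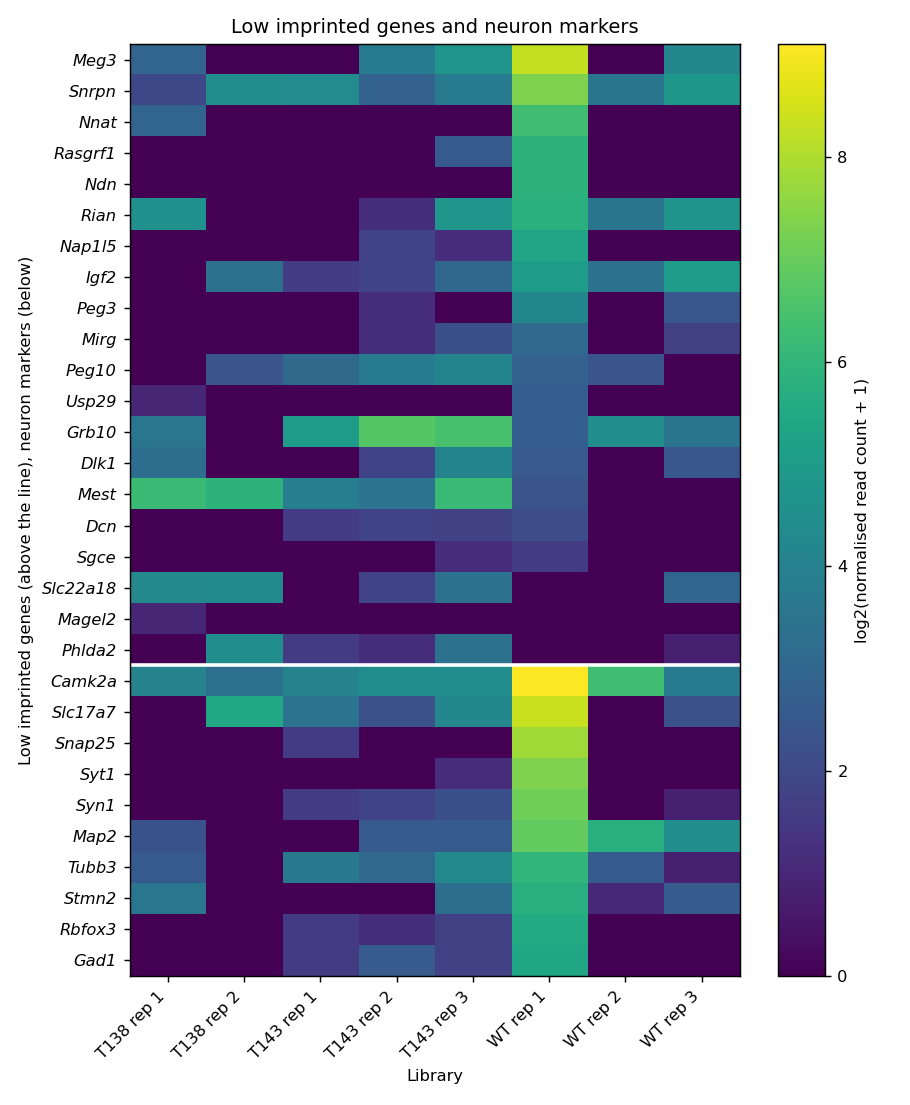
Heat map of log2(normalised read count + 1) for the 20 imprinted genes with a mean under 100 and above 0 (above the white line) and 10 neuron markers (below it) in the 8 libraries, with brighter colours for higher values. The WT replicate 1 column is bright for Meg3, Snrpn, Nnat, Rasgrf1, Ndn and Nap1l5 and for all 10 neuron markers, while Mest is bright in T138 and T143.

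Leaving out WT replicate 1 changed both the medians of the members and which of them passed. The median log2 change of the tested members was -0.61 in T138 and -0.47 in T143 against WT (all genes -0.06 and 0.05). Without that library it was -0.28 and 0.13 (all genes -0.02 and 0.079). The calls were then 2 higher (6.25%) and 5 lower (15.6%) in T138 and 2 higher (6.25%) and 7 lower (21.9%) in T143, among 32 members tested. Of all 15230 genes tested in that run, 738 were higher and 620 lower in T138, and 1718 higher and 1647 lower in T143. These counts hide exchanges: without that library Impact and Plagl1 no longer passed in T138, nor Mcts2 and Commd1 in T143, and Kcnq1ot1 passed as lower in both (-1.22, adjusted p = 0.0436, and -1.26, adjusted p = 0.015). Of the 17 tested members with a mean under 100, only Mest passed against WT in limma, in both lines and upward. The members that fell in either line against WT were all among the 18 with a mean of at least 100. The share of all genes called at the same levels was not counted, and the scale understates changes of low genes. This split by level therefore cannot be read as a trait of imprinted genes.

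The other low members were Igf2, Rian, Mirg, Dlk1, Peg10, Sgce, Dcn, Phlda2 and Slc22a18. Igf2, the fetal growth factor, was at 31.0, 9.58 and 31.9 in WT, 0 and 9.31 in T138, and 1.99 to 7.43 in T143, and passed in no comparison (adjusted p = 0.168 in T138 and 0.137 in T143). H19, the maternally expressed RNA that shares its enhancers, was at 0 throughout. Rian reached 53.7, in WT replicate 1. Dlk1 and Peg10 reached 16.1, both in T143 replicate 3, which had the highest sum of myeloid markers. The part of these markers in the Dlk1 and Peg10 values was not tested. Mirg, Dcn and Sgce stayed at 7.58 or less in every library. Rtl1 of the Dlk1-Meg3 locus and Zim1 of the Peg3 locus were at 0 throughout, so for these loci the absence of reads says only that no more than the value of 3 reads, 2.07 to 5.97, is likely.

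The genes that lay and keep imprints were compared next, from a list of 27 genes of which 25 were tested. In T138 against WT, 1 rose (4.0%, all genes 5.74%) and 3 fell (12%, all genes 5.3%), at a list median of -0.18 beside -0.06 for all genes. In T143 against WT, 5 passed and all of them fell (20.0%, all genes 12.1%), at a list median of -0.21 beside 0.05. Zfp57, the gene of the imprint-keeping zinc finger protein, was at 58.1 and 45.7 in T138 libraries, 0, 1.27 and 1.24 across T143, and 5.51, 5.32 and 3.80 across WT. It rose in T138 by 3.17 ± 0.87 (adjusted p = 0.0419) and was lower in T143 than in T138 (adjusted p = 0.00352), with T143 at 1 read a library or less. Trim28, which encodes the corepressor that ZFP57 recruits, was at 3502 and 3061 in T138 cells, 4466, 4447 and 3635 in T143 cells, and 4850.2, 5089.6 and 5395 in WT cells. It fell in T138 (-0.64 ± 0.15, adjusted p = 0.0198). Dnmt3a, a de novo DNA methyltransferase gene, was at 1949 and 1704 for T138, 2434, 2596 and 2186 for T143 and 3105, 4354 and 3686 for WT. Dnmt3a fell in T138 (-1.01 ± 0.17, adjusted p = 0.00406) and in T143 (-0.62 ± 0.15, adjusted p = 0.0144), with no overlap between groups.

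Of the genes of the TET enzymes, which oxidise methylated cytosine, Tet1 fell in T138 and Tet2 in T143. Tet1 was at 113 and 151 in T138 libraries, 997, 962 and 413 across T143, and 557, 683 and 389 across WT. It fell in T138 (-2.01 ± 0.39, adjusted p = 0.00858) and was higher in T143 than in T138 by 2.48 ± 0.39 (adjusted p = 0.00198). Tet2 fell in T143 against WT (-1.21 ± 0.24, adjusted p = 0.00496), and Zfp445, which encodes a second imprint-keeping zinc finger protein, fell there (-0.74 ± 0.17, adjusted p = 0.01). Ehmt2, an H3K9 methyltransferase gene, fell in T143 (-0.45 ± 0.12, adjusted p = 0.0202) and was lower in T143 than in T138 (-0.86 ± 0.13, adjusted p = 0.00191). Between the lines, 1 of the 25 genes was higher in T143 (4.0%, all genes 10.8%) and 5 were lower (20.0%, all genes 10.2%). The list median was 0.14 beside 0.15 for all genes.

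A second list held 36 other imprinted genes, of which 24 were tested. Unlike the members, it was not split by tissue, and it includes Slc22a2 and Slc22a3, whose silencing by Airn is limited to placental tissue. Its shares therefore do not describe genes known to be imprinted in T cells. In T138 against WT, 3 rose (12.5%, all genes 5.74%) and 5 fell (20.8%, all genes 5.3%), at a list median of 0.0 beside -0.06 for all genes. In T143 against WT, 1 rose (4.17%, all genes 11.7%) and 4 fell (16.7%, all genes 12.1%), at a list median of 0.03 beside 0.05. Begain of the Dlk1-Meg3 domain was at 2.95 and 0 in T138 cells, 23.9, 48.4 and 30.9 in T143 cells, and 119.8, 72.4 and 83.6 in WT cells, and fell in T138 (adjusted p = 0.00216). Tspan32, a tetraspanin gene of T cells at the edge of the Kcnq1 cluster, was at 6478 and 6177 for T138, 3495, 3449 and 2625 for T143 and 7357, 6701 and 6856 for WT. It fell in T143 (-1.14 ± 0.14, adjusted p = 0.000453). Qpct, which encodes glutaminyl cyclase, rose in T143 by 2.26 ± 0.73 (adjusted p = 0.0471), and Phactr2 near Plagl1 fell there (-0.91 ± 0.24, adjusted p = 0.0193).

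The genes nearest to the members that are not members themselves, 121 in all, were counted in the same way. In T138 against WT, 6.61% rose (all genes 5.74%) and 8.26% fell (all genes 5.3%). In T143 against WT, 10.7% rose (all genes 11.7%) and 14.0% fell (all genes 12.1%). With both lines averaged against WT, 4.13% of the neighbours rose (all genes 7.34%) and 13.2% fell (all genes 7.42%), beside 14.3% of the members. Between the lines, 11.6% were higher in T143 (all genes 10.8%) and 12.4% lower (all genes 10.2%). The median log2 changes of the neighbours were -0.16, -0.02, -0.12 and 0.13 in these comparisons.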

How the data were processed

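The deposited values of 8 libraries are a signal: read counts per gene, scaled by the authors to a common total, as inferred because each library holds only multiples of its own step. Libraries were made with the Truseq stranded mRNA kit, per the labels' protocols. CASAVA 1.8.2, STAR 2.5.2b, HOMER 4.8, edgeR (no version) and mm10 are named, without roles, per the submitters' processing notes. The counting of strand, duplicates and multi-mapped reads is not stated in the sources used here.

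Dividing by the step returned whole reads for 100% of values (tolerance 0.01). The main test was limma 3.58.1 in R 4.3.3 on log2(value + 1), with trend and robust moderation, all 8 libraries fitted together without covariates, two-sided, Benjamini-Hochberg adjusted over the 15547 of 24453 genes that reached 1 in 2 or more libraries, at a threshold of 0.05. This scale understates changes of low genes. edgeR 4.0.16 on the recovered reads called 1427 genes in T138 against WT, 3410 in T143 against WT, 2062 for both lines and 2959 between the lines, beside 1716, 3698, 2295 and 3272 with limma. DESeq2 1.42.0, other scalings, filters and pseudocounts, a replicate block and left-out libraries were alternatives. The fitting procedure was tested on simulated data.

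The members and lists were chosen with earlier results of these data known. The neuron list was added after values were seen. Named members follow a rule: tested members by name, with every library where the mean was at least 100 or a comparison passed, and up to 4 genes of each comparison list by smallest p. Slc22a18, Meg3, Snrpn and other low members are given by value as examples chosen after their values were seen. Positions came from RefSeq GRCm38.p6 (24361 rows matched) and lengths from GENCODE M21 (24221 rows). Intervals and floors of reads cover counting error only. Allelic expression and DNA methylation were not analysed here.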

Additional observations from a re-analysis of the deposited data

Results flagged for a closer look

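For 8 imprinted genes the change against WT differed between T138 and T143, tested as T143 against T138 in limma. Of the 35 tested members, 11.4% were higher and 11.4% lower in T143, beside 10.8% and 10.2% of all genes. The count is thus near the background, and the genes are listed one by one only for their size and direction. The log2 difference (T143 minus T138) was -3.57 for Cdkn1c, -2.13 for Impact, -1.21 for Peg13 and -0.88 for Zrsr1. It was 4.29 for Grb10, 1.23 for Igf2r, 0.95 for Commd1 and 0.84 for Ube3a. Of these, Cdkn1c, Impact and Igf2r passed in every alternative. Sex and line cannot be told apart in this comparison, since Xist was high in every T143 library and low in every T138 library. No library was tested as an outlier, because no group has 4 libraries.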

How the results depend on the processing

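The members gave 33 called changes over the 4 comparisons. Of these, 19 stayed past the threshold in every alternative that tested them, and 0 reversed; over all settings, 513 values stayed called and 74 did not. Leaving out 1 library at a time gave 4 to 8 called members in T138 against WT (8 with all libraries), 7 to 12 in T143 against WT (10), 6 to 8 for both lines against WT (7) and 5 to 8 in T143 against T138 (8). For all genes the counts ran from 757 to 1837 (1716), 2460 to 3575 (3698), 1311 to 2285 (2295) and 1345 to 3674 (3272). Counts of all genes moved by over 1.5 times without T138 replicate 1 or 2 or WT replicate 3 in the first comparison, T143 replicate 2 in the second, WT replicate 2 or 3 in the third, and T138 replicate 1 or 2 or T143 replicate 2 in the fourth; those of members without T138 replicate 1 or 2 or WT replicate 3 (5, 4 and 4) in the first, and T138 replicate 2 or T143 replicate 2 (5 each) in the fourth. Fewer samples enter such fits, and where 1 T138 library is left it is assumed to vary like the other groups. Counts for all genes under every other alternative were within 1.5 times. Deviations of same-numbered libraries from their group means correlated at -0.062 to 0.055. This shows no pairing by replicate number, but deviations within groups of 2 and 3 cannot exclude a shared day or batch. With a replicate block the members called were 7, 10, 8 and 9, and all genes 1804, 3940, 2566 and 3109. The block ended the calls of Plagl1 (adjusted p = 0.0672) and Trappc9 (0.0524) in T138, Trappc9 for both lines (0.0531), Commd1 in T143 against WT (0.0601) and against T138 (0.0951), and Grb10 in T143 against T138 (0.0536). Some members not called with the main setting passed in others, among them Kcnq1ot1, Peg13 and Grb10 in T143 against WT. Quantile normalization moved the median change of all genes in T143 against WT from 0.053 to -0.078 and in T143 against T138 from 0.152 to 0.014. Without the 2 libraries whose source names conflict, 7, 7, 7 and 6 of the 32 members tested passed. Of all 15083 genes tested in that run, 1381, 2823, 1665 and 2752 passed. At a value of 3 reads, 2.07 to 5.97, changes of low members were not detectable.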

Other observations

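Several annotated transcripts overlap members and have rows of their own. Snurf, which shares its transcript with Snrpn, had the value of Snrpn in every library but WT replicate 1 (157.7 against 159.8), so the pair is not separable here. Snhg14, the paternally expressed host RNA that runs antisense to Ube3a in neurons, was at 12.8 and 0 in T138 libraries, 1.99, 1.27 and 7.43 across T143, and 16.5, 36.2 and 11.4 across WT, and did not pass against WT (adjusted p = 0.258 in T138). Hymai, a noncoding RNA of the Plagl1 locus, was at 26.9 in WT replicate 1 and 10.2 or less elsewhere. Nespas, the antisense RNA of the Gnas locus, was at 11.4 or less in every library, and Igf2os at 15.8 or less.

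The X-linked genes from which the intronless copies arose were also read. Mcts1 was at 757 ± 82.4 in T138 (SD, n = 2), 620.4 ± 60.5 in T143 (SD, n = 3) and 548 ± 22.9 in WT (SD, n = 3). Zrsr2 was at 692 ± 57.7 in T138, 442 ± 49.4 in T143 and 808 ± 120.6 in WT. It fell in T143 against WT (-0.86 ± 0.18, adjusted p = 0.0062) and was lower in T143 than in T138 (-0.65 ± 0.20, adjusted p = 0.0415), beside -0.79 and -0.88 for its copy Zrsr1 in the same comparisons. Reads of Zrsr1 and Zrsr2 may not be separable. Herc3, whose intron holds Nap1l5, was at 1184 and 1077 in T138 cells, 1654, 1755 and 1156 in T143 cells, and 1805, 2435 and 1746 in WT cells, and fell in T138 (-0.80 ± 0.21, adjusted p = 0.0363).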
